A study of Homo sapiens with 18 samples.

Results

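A set of 36 autophagy and lysosome genes was followed through a short treatment of 3 lung cancer lines with TRI-611. The genes were chosen by name from 57500 genes in the deposited table, and all 36 were found there once. They were grouped by role: 10 genes of initiation and membrane supply, 9 of the conjugation of the LC3 and GABARAP proteins, 2 cargo receptors, 2 transcription factors, 4 lysosomal membrane proteins, 6 enzymes of the lysosomal lumen and 3 subunits of the V-ATPase. Poly-A RNA had been sequenced from the SNU2535, NCI-H3122 and NCI-H2228 lines after 3 h of DMSO or 3 µM TRI-611, with 3 libraries in each of the 6 groups. TRI-611 is, per the title of the series, a molecular glue degrader acting on ALK, a receptor tyrosine kinase. All groups were grown in RPMI medium with serum, all are labelled as non-small cell lung cancer cells, and the genotype of each is labelled WT. The lines are established cancer lines known for EML4-ALK fusions. The labels name 1 dose and 1 time, and no library without ALK or with an inactive compound was analysed here.

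Macroautophagy encloses cytoplasm in a growing membrane, the phagophore, which closes into an autophagosome and fuses with lysosomes. The ULK1 complex starts the process, a lipid kinase complex with Beclin 1 marks the membrane, lipid transfer proteins feed it, and a ubiquitin-like system couples LC3 and GABARAP proteins to its lipids. Receptors such as p62 bring cargo to these proteins, lysosomal hydrolases digest it in a lumen acidified by the V-ATPase, and TFEB and TFE3 are transcription factors of many of these genes. Signalling through mTORC1, which lies downstream of receptor tyrosine kinases, is known to restrain autophagy.

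Between 23766 and 25921 genes lay above 0 TPM (a share of all transcripts in the library, corrected for gene length) per library. Across genes, on the log2(TPM + 1) scale, r between replicates was 0.991 to 0.993. The files hold no read totals, so the depth is unknown. All 6 of 6 epithelial markers (EPCAM, CDH1 and keratins) exceeded 1 TPM in each group. Their levels differed, with CDH1 averaging 567, 167 and 5.65 TPM with DMSO in SNU2535, NCI-H3122 and NCI-H2228. Of the 3 mesenchymal markers, VIM averaged 50.2, 0.939 and 1036 TPM with DMSO in the same order. FN1 averaged 326, 10.6 and 721 TPM and ZEB1 0.0618, 0.0641 and 13.0 TPM, so that all 3 were highest in NCI-H2228. Of 4 lung adenocarcinoma markers, 4 did so in SNU2535 and NCI-H2228 and 2 in NCI-H3122, where NAPSA and SFTPB lay near 0. Of the 3 fibroblast markers, COL1A1 averaged 135, 12.3 and 379.6 TPM with DMSO in SNU2535, NCI-H3122 and then NCI-H2228, while COL1A2 stayed under 1 TPM. DCN was listed at 0 with DMSO and reached at most 0.0119 TPM, in NCI-H3122. The 3 leukocyte markers summed to 0.734 to 4.60 TPM over all libraries, most of it CD68 (2.30, 0.969 and 3.57 TPM with DMSO). The 2 endothelial markers summed to 0.751 to 7.42 TPM, with PECAM1 at 6.43 TPM in SNU2535 with DMSO. Mitochondrially encoded genes took 8.70%, 11.2% and 9.07% of TPM with DMSO in the 3 lines in the order SNU2535, NCI-H3122, NCI-H2228, which is kept below where values of the 3 lines stand together. With TRI-611 they took 9.13%, 12.5% and 10.8%. Their part in the results was not tested, apart from counts without these genes. The summed level of the 6 epithelial markers was lower with TRI-611 in each line (9106 to 9477 TPM against 8331 to 8652 TPM in SNU2535, 8878 to 9175 against 7548 to 8073 in NCI-H3122, 3456 to 3568 against 3116 to 3172 in NCI-H2228). Within that list CDH1 was higher in each line, for example 563 to 573 TPM with DMSO against 620.4 to 683 TPM with TRI-611 in SNU2535. The summed lung adenocarcinoma markers were higher with TRI-611 in each line, 1143 to 1254 TPM against 1365 to 1408 TPM in SNU2535, 121 to 141 against 244 to 279 in NCI-H3122 and 138 to 146 against 195 to 217 in NCI-H2228. The sums do not show that all 4 of these markers rose. NKX2-1 averaged 351, 125 and 83.1 TPM with DMSO, and its highest library in each line read 458, 271 and 149 TPM. SFTA3 in SNU2535 averaged 105 ± 5.03 TPM with DMSO (SD), while its lowest library, a treated one, read 87.8 TPM. The 3 mesenchymal markers summed to 375 to 377 TPM with DMSO against 393 to 440 TPM with TRI-611 in SNU2535. In NCI-H3122 they summed to 11.3 to 12.1 against 15.9 to 18.3 TPM, and in NCI-H2228 the groups overlapped. The part of these markers in the results was not tested.

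The first comparison asked how the members differed after 3 h of TRI-611 in each line. More members rose than fell in every line, with ULK1, ATG14, ATG2A, WIPI2 and GABARAPL1 higher and ATG16L1 lower throughout. Genes of initiation and membrane supply made up 6 of the 16 rises in SNU2535, 8 of 14 in NCI-H3122 and 4 of 5 in NCI-H2228. A gene was called when limma's two-sided test on log2(TPM + 1) gave a Benjamini-Hochberg adjusted p under 0.05 over all tested genes. In SNU2535, 16 of 35 tested members rose and 3 fell, where 10.7% of all tested genes rose and 18.1% fell. In NCI-H3122, 14 of 35 rose and 4 fell, where 20.6% of all tested genes rose and 13.4% fell. In NCI-H2228, 5 of 36 rose and 2 fell, where 4.8% of all tested genes rose and 6.4% fell. The median log2 difference of the tested members was 0.13, 0.15 and 0.073, and that of all tested genes was -0.019, 0.055 and 0.0094. In these bulk cultures, a change in a share of the cells and a smaller change in all of them cannot be told apart, and the same holds for fewer cells of a type and less RNA per cell.

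TRI-611 and DMSO libraries did not overlap for any called member. Separation was also counted over all tested members, called or not. All 3 TRI-611 libraries lay above all 3 DMSO libraries for 20 members in SNU2535, 17 in NCI-H3122 and 9 in NCI-H2228. The same held for 18.1%, 29.5% and 15.2% of all tested genes. They lay below for 4, 4 and 6 members, against 25.8%, 18.6% and 16.2% of all tested genes. Quantile normalization moved the share of all called genes in SNU2535 that rose from 37.1% to 50.9%, with 20 members higher and 2 lower. Of all tested genes, 15.4% were then higher and 14.9% lower. Median-ratio scaling moved the share of called genes that rose in NCI-H3122 from 60.6% to 47.5%, with 12 members higher and 5 lower. There 17.6% of all tested genes were higher and 19.4% lower. Leaving out mitochondrially encoded genes moved the share of called genes that rose in NCI-H2228 from 42.8% to 56.1%, with 8 members higher and 2 lower. Quantile normalization there gave 9 higher and 3 lower. All tested genes were higher in 6.78% and lower in 5.3% in the former and in 6.16% and 6.3% in the latter. With the labels' batch as a replicate block, NCI-H3122 kept 9 higher and 2 lower, where 16.4% of all tested genes were higher and 11.6% lower. Without DMSO replicate 2, DMSO replicate 3 or TRI-611 replicate 2, 9 members were higher in NCI-H3122, and without any 1 DMSO library or TRI-611 replicate 3, 2 were lower. Leaving out 1 library there, 2240 to 3025 of all 15311 tested genes were higher and 1588 to 1923 lower. The main fit gave 3160 and 2054.

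**Figure D1:**
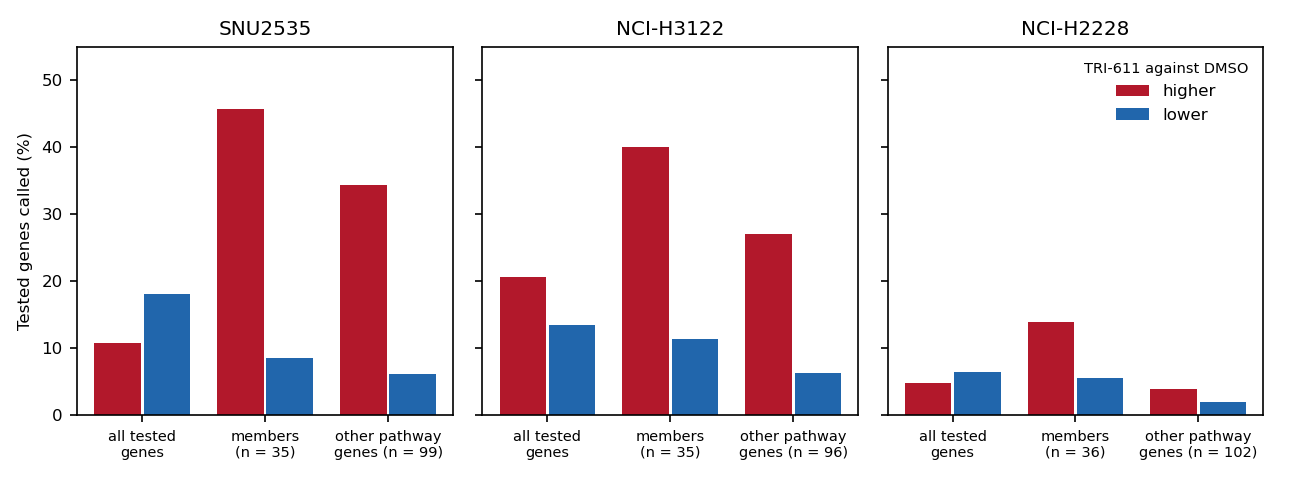
Percent of tested genes called higher (red) or lower (blue) with TRI-611 in each line, for all tested genes, the members and a list of 106 other autophagy and lysosome genes (y axis from 0, in percent). Among members the red bar stands above the blue one in each line, with 16 against 3 genes in SNU2535, 14 against 4 in NCI-H3122 and 5 against 2 in NCI-H2228.

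The members fell into groups by how they moved across the lines. ULK1, ATG14, ATG2A, WIPI2 and GABARAPL1, 5 members, rose in all 3 lines, as did 2.56% of the 13186 genes tested in all 3. ATG16L1 was the 1 member that fell in all 3, as did 4.74% of those genes. Another 6 members rose in 2 lines (ATG13, ATG9A, SQSTM1, NBR1, LAMP2 and CTSB) and 7 rose in 1 (BECN1, WIPI1, ATG5, GABARAP, CTSD, HEXA and ATP6V1A). TFE3 fell in 2 lines, and MAP1LC3B and TFEB fell in 1 each. NPC1 rose in 1 line and fell in the other two. The other 13 members were called in no line: ULK2, UVRAG, ATG7, ATG12, MAP1LC3A, GABARAPL2, LAMP1, MCOLN1, CTSA, CTSL, GLA, ATP6V0D1 and ATP6V1H.

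**Figure D2:**
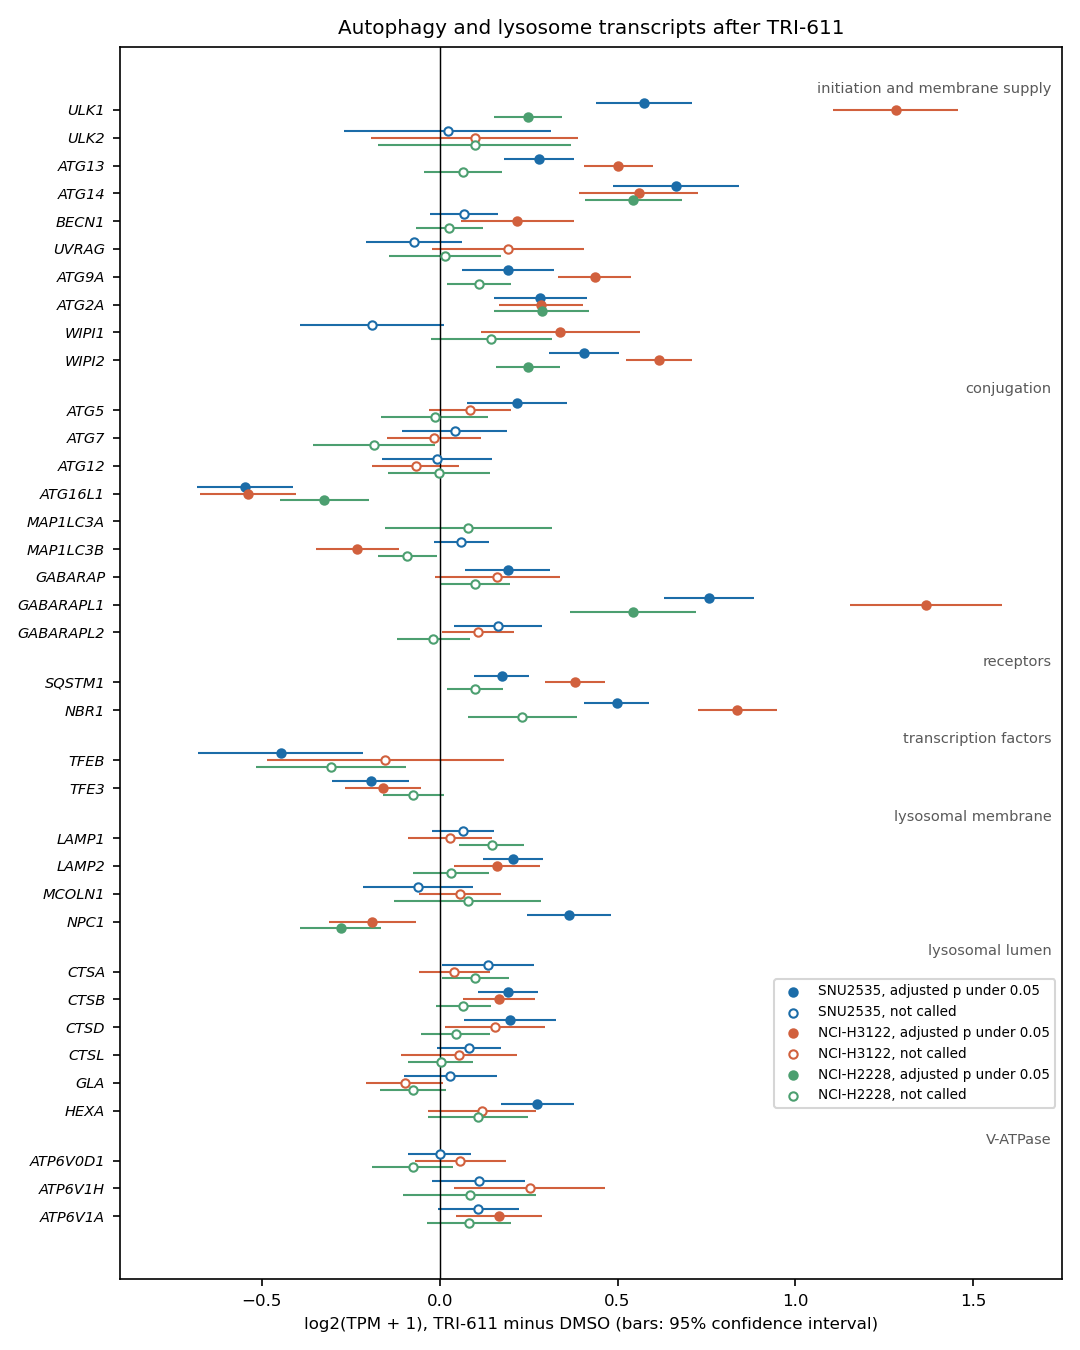
Difference between TRI-611 and DMSO for each member, grouped by role, on the log2(TPM + 1) scale (x axis; points are limma estimates with 95% confidence intervals, filled where the adjusted p was under 0.05, n = 3 libraries per group). GABARAPL1 and ULK1 in NCI-H3122 lie farthest to the right, at 1.37 and 1.28, and ATG16L1 lies left of 0 in each line.

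Promoter sequence was read for the motif that TFEB and TFE3 are known to bind. Windows from 250 bases before to 50 after the gene start were taken from RefSeq (GRCh38.p14), which matched 29 of 36 members. The E-box CACGTG, a palindrome and so the same on both strands, occurred in 6 of these 29 members (20.7%) and in 8.77% of 27305 genes. The longer TCACGTGA, which contains the E-box and is also a palindrome, occurred in 4 members (13.8%) and in 1.18% of genes. The forkhead motif GTAAACA, searched on both strands, occurred in 1 member (CTSL, 3.45%) and in 4.19% of genes. Of the 9 matched members that rose in 2 or 3 lines, 1 held CACGTG (ATG14) and 0 held the other motifs. Of the 10 matched members called in no line, 4 held TCACGTGA, and with it CACGTG, and 1 held GTAAACA. CTSD, which rose in SNU2535 alone, held CACGTG. The matching stretches upstream of the RefSeq start are shown 5′ to 3′ with the motif in capitals, ATG14 because it rose in every line and the others because they hold the longer motif, a choice made after their values were seen.
ATG14, chr14:55411835-55411862, minus strand: aaacaaaatccCACGTGactggctctcc
LAMP1, chr13:113297199-113297228, plus strand: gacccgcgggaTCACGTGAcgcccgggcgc
MCOLN1, chr19:7522571-7522623, plus strand: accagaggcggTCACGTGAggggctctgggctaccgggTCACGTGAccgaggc
CTSA, chr20:45891298-45891327, plus strand: ggcgccggagtTCACGTGActcgtacacat
ATP6V0D1, chr16:67481199-67481228, minus strand: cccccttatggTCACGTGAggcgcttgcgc
MCOLN1 held 2 copies before its start, at 42 and 15 bases, and a second copy in LAMP1 spanned the start and is not shown. The RefSeq start can differ from the start in GENCODE, from which the gene coordinates below come.

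No gene of initiation and membrane supply fell: 6 of 10 genes rose in SNU2535, 8 of 10 in NCI-H3122 and 4 of 10 in NCI-H2228. Of all tested genes, 10.7%, 20.6% and 4.8% rose and 18.1%, 13.4% and 6.4% fell. ULK1 encodes the kinase that starts autophagosome formation (ENSG00000177169, GRCh38 chromosome 12, 131894651 to 131923167, plus strand). In NCI-H3122 it measured 14.4, 12.8 and 14.7 TPM with DMSO and 32.6, 35.2 and 38.4 TPM with TRI-611, a ratio of means of 2.54 (log2 difference 1.28, SE 0.076, limma adjusted p = 1.96e-05). In SNU2535 it measured 12.8, 14.1 and 13.7 TPM with DMSO and 21.6, 20.3 and 20.0 TPM with TRI-611 (log2 difference 0.57, SE 0.058, limma adjusted p = 0.000287). NCI-H2228, where ULK1 was highest, measured 42.9, 43.9 and 42.8 TPM with DMSO and 53.2, 51.3 and 50.01 TPM with TRI-611 (log2 difference 0.25, SE 0.042, limma adjusted p = 0.00722). The groups did not overlap in any line.

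ATG14 is the Beclin 1 partner that directs the lipid kinase complex to the forming autophagosome (ENSG00000126775, chromosome 14, 55366392 to 55411858, minus strand). SNU2535 gave 23.5, 22.0 and 23.0 TPM with DMSO and 32.5, 38.2 and 39.9 TPM with TRI-611 (log2 difference 0.66, SE 0.076, limma adjusted p = 0.000558), with TRI-611 replicate 1 the lowest treated library. NCI-H3122 gave 11.6, 11.2 and 11.6 TPM with DMSO and 17.2, 19.2 and 15.9 TPM with TRI-611 (log2 difference 0.56, SE 0.072, limma adjusted p = 0.000824). NCI-H2228 gave 14.4, 14.6 and 15.4 TPM with DMSO and 22.4, 20.8 and 23.0 TPM with TRI-611 (log2 difference 0.54, SE 0.06, limma adjusted p = 0.000904). In each line every treated library exceeded every DMSO library. Of its partners, BECN1, which encodes Beclin 1, was called only in NCI-H3122, and UVRAG, the partner in a second Beclin 1 complex, differed by -0.073, 0.19 and 0.014 and was called in no line.

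BECN1 read 20.5, 18.2 and 19.4 TPM with DMSO and 22.0, 24.6 and 21.6 TPM with TRI-611 in NCI-H3122, groups that did not overlap (log2 difference 0.22, SE 0.068, limma adjusted p = 0.0411). With the replicate block the limma adjusted p was 0.0826, and when DMSO library 2 or 3 or TRI-611 library 1 or 2 was left out it was 0.0563 to 0.127. SNU2535 read 32.5, 34.5 and 33.5 TPM with DMSO and 35.2, 35.4 and 34.9 TPM with TRI-611 and NCI-H2228 38.1, 38.1 and 39.0 TPM with DMSO and 39.1, 38.3 and 40.0 TPM with TRI-611, with limma adjusted p = 0.264 and 0.744. BECN1 shares exonic bases with PSME3 and CNTD1 on the opposite strand, and reads of such pairs cannot be told apart without a stated strand setting.

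WIPI2 binds the lipid made by that complex and recruits the conjugation machinery. It went from 28.6, 28.0 and 28.5 TPM to 43.6, 43.4 and 45.1 TPM in NCI-H3122 (log2 difference 0.62, SE 0.04, limma adjusted p = 2.98e-05). SNU2535 showed 30.8, 29.7 and 31.3 TPM with DMSO and 41.2, 41.7 and 39.7 TPM with TRI-611 (log2 difference 0.40, SE 0.042, limma adjusted p = 0.000352). NCI-H2228 showed 48.7, 49.8 and 47.5 TPM with DMSO and 58.9, 57.4 and 57.6 TPM with TRI-611 (log2 difference 0.25, SE 0.039, limma adjusted p = 0.00547). No DMSO library of WIPI2 reached a treated library of its line. The related WIPI1 did not follow it. It read 3.03, 2.75 and 3.04 TPM with DMSO and 3.65, 4.15 and 4.16 TPM with TRI-611 in NCI-H3122, where it was called (log2 difference 0.34, SE 0.10, limma adjusted p = 0.0295). That call did not hold under quantile normalization, with the replicate block (limma adjusted p = 0.0827) or without any 1 DMSO library or TRI-611 replicate 2 or 3 (0.0632 to 0.0897). In SNU2535 all treated libraries were below the DMSO libraries, at 5.01, 5.29 and 4.74 TPM with DMSO and 4.02, 4.50 and 4.29 TPM with TRI-611 (limma adjusted p = 0.148). In NCI-H2228 the groups overlapped at 22.3, 21.8 and 24.1 TPM with DMSO and 22.6, 26.6 and 26.7 TPM with TRI-611 (limma adjusted p = 0.266). WIPI1 overlaps ARSG, on the opposite strand, over 828 of its 3402 exonic bases.

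ATG2A, which moves lipids into the phagophore, rose in each line. SNU2535 read 30.0, 33.1 and 32.2 TPM with DMSO and 41.2, 37.9 and 37.5 TPM with TRI-611, NCI-H3122 27.4, 26.9 and 28.8 TPM with DMSO and 35.7, 32.8 and 33.3 TPM with TRI-611 and NCI-H2228 22.3, 19.9 and 21.1 TPM with DMSO and 27.0, 25.2 and 25.6 TPM with TRI-611. The log2 differences were 0.28, 0.28 and 0.29, with limma adjusted p = 0.00729, 0.00411 and 0.0163, and the groups never overlapped. The call in NCI-H2228 was lost without DMSO replicate 2 or TRI-611 replicate 1 (limma adjusted p = 0.0598 to 0.0694). ATG9A, the scramblase of the vesicles that seed the membrane, read 32.0, 29.8 and 29.9 TPM with DMSO and 41.9, 41.0 and 42.1 TPM with TRI-611 in NCI-H3122 (log2 difference 0.44, SE 0.044, limma adjusted p = 0.000258). It read 19.4, 22.0 and 21.2 TPM with DMSO and 24.0, 23.8 and 24.1 TPM with TRI-611 in SNU2535 (log2 difference 0.19, SE 0.055, limma adjusted p = 0.0350). The values were 41.9, 41.1 and 41.7 TPM with DMSO and 44.5, 45.5 and 44.9 TPM with TRI-611 in NCI-H2228 (limma adjusted p = 0.112). All treated libraries were the higher ones in each line. The SNU2535 call did not hold with the replicate block (limma adjusted p = 0.0596) or without DMSO replicate 1 or 3 or any 1 TRI-611 library (0.0740 to 0.0962).

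ATG13, a subunit of the ULK1 complex, rose by 0.28 in SNU2535 and 0.50 in NCI-H3122 on the log2 scale (limma adjusted p = 0.00207 and 9.76e-05), and its value in NCI-H2228 was 0.066 (limma adjusted p = 0.443). ULK2, the second ULK kinase, lay between 2.04 and 3.46 TPM in all 18 libraries and was called in no line. Its 95% confidence intervals were wide, -0.27 to 0.31 in SNU2535, -0.19 to 0.39 in NCI-H3122 and -0.17 to 0.37 in NCI-H2228, so a rise like that of ULK1 in NCI-H2228 lay inside them and those of ULK1 in the other lines lay outside.

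The conjugation genes split: GABARAPL1 had the largest rise of all members in SNU2535 and NCI-H3122, and ATG16L1 the largest fall of all members in all 3 lines. Of the tested genes of this role, 3 of 8 rose and 1 fell in SNU2535, 1 of 8 rose and 2 fell in NCI-H3122, and 1 of 9 rose and 1 fell in NCI-H2228. The shares over all tested genes were 10.7%, 20.6% and 4.8% for rises and 18.1%, 13.4% and 6.4% for falls. GABARAPL1 encodes a small ubiquitin-like protein of the LC3 and GABARAP family that becomes joined to the autophagosome membrane (ENSG00000139112, chromosome 12, 10212458 to 10223130, plus strand). NCI-H3122 held 13.7, 11.7 and 11.3 TPM with DMSO and 29.7, 36.2 and 33.6 TPM with TRI-611, a ratio of means of 2.71 (log2 difference 1.37, SE 0.092, limma adjusted p = 3.67e-05). SNU2535 held 10.7, 11.3 and 10.4 TPM with DMSO and 19.5, 18.6 and 18.7 TPM with TRI-611 (log2 difference 0.76, SE 0.055, limma adjusted p = 5.83e-05). NCI-H2228 held 21.2, 21.3 and 25.1 TPM with DMSO and 34.8, 30.9 and 34.0 TPM with TRI-611 (log2 difference 0.54, SE 0.077, limma adjusted p = 0.00323). No treated library overlapped the DMSO libraries of its line. GABARAPL3, a near-identical copy, was listed at 0 in all libraries.

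Other members of the family differed from GABARAPL1 in their calls. MAP1LC3B, which encodes LC3B, fell in NCI-H3122 from 25.3, 24.0 and 24.9 TPM to 20.0, 20.9 and 21.8 TPM (log2 difference -0.23, SE 0.05, limma adjusted p = 0.00933). In SNU2535 it read 53.6, 53.6 and 53.7 TPM with DMSO and 56.0, 56.3 and 55.7 TPM with TRI-611 (limma adjusted p = 0.220). NCI-H2228 gave 184, 173 and 178 TPM with DMSO and 164, 167 and 171 TPM with TRI-611 (limma adjusted p = 0.154). The treated libraries were thus all lower in NCI-H3122 and NCI-H2228 and all higher in SNU2535. MAP1LC3B shares 150 exonic bases with FBXO31 on the opposite strand. The near copy MAP1LC3B2 lay between 0.074 and 2.36 TPM. GABARAP was called only in SNU2535 (log2 difference 0.19, SE 0.051, limma adjusted p = 0.0270), a call that did not hold with the replicate block (limma adjusted p = 0.0525) or when DMSO library 1 or 3 or TRI-611 library 1 or 2 was left out (0.0631 to 0.0817). GABARAPL2 had log2 differences of 0.16, 0.11 and -0.018 and was called in no line, and in SNU2535 the replicate block gave a limma adjusted p of 0.0356. MAP1LC3A, also of this family, passed the filter on low values only in NCI-H2228, with 7.83, 6.59 and 7.72 TPM with DMSO and 8.26, 8.51 and 6.84 TPM with TRI-611 (limma adjusted p = 0.689). In SNU2535 it read 0, 0.1002 and 0.0763 TPM with DMSO and 0.160, 0.246 and 0.149 TPM with TRI-611, in NCI-H3122 it was listed at 0 in 4 of 6 libraries, and it was tested in neither.

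ATG16L1 brings the conjugation enzyme complex to the membrane (ENSG00000085978, chromosome 2, 233210051 to 233295674, plus strand). It dropped in SNU2535 from 25.4, 26.4 and 26.6 TPM to 16.3, 18.6 and 17.9 TPM (log2 difference -0.55, SE 0.058, limma adjusted p = 0.000380). NCI-H3122 gave 36.5, 35.9 and 36.1 TPM with DMSO and 22.6, 26.1 and 25.1 TPM with TRI-611 (log2 difference -0.54, SE 0.058, limma adjusted p = 0.000351). NCI-H2228 gave 40.7, 40.8 and 45.5 TPM with DMSO and 33.0, 33.3 and 34.5 TPM with TRI-611 (log2 difference -0.32, SE 0.055, limma adjusted p = 0.00720). Every treated library was below every DMSO library of its line. Among other genes of the system, ATG5, which forms a complex with ATG12 and ATG16L1, was called higher in SNU2535 alone (log2 difference 0.22, SE 0.061, limma adjusted p = 0.0315), and lost that call with the replicate block (limma adjusted p = 0.0526) or without DMSO replicate 1 or 2 or any 1 TRI-611 library (0.0546 to 0.0939). ATG12 differed by -0.008, -0.068 and -0.0015 and ATG7, the activating enzyme, by 0.042, -0.017 and -0.18, with no call. ATG12 shares 378 exonic bases with AP3S1 and ATG7 1596 with VGLL4, both on the opposite strand and both at a higher mean TPM than the member (56.7 against 16.8 and 19.8 against 11.1 over all libraries).

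**Figure D3:**
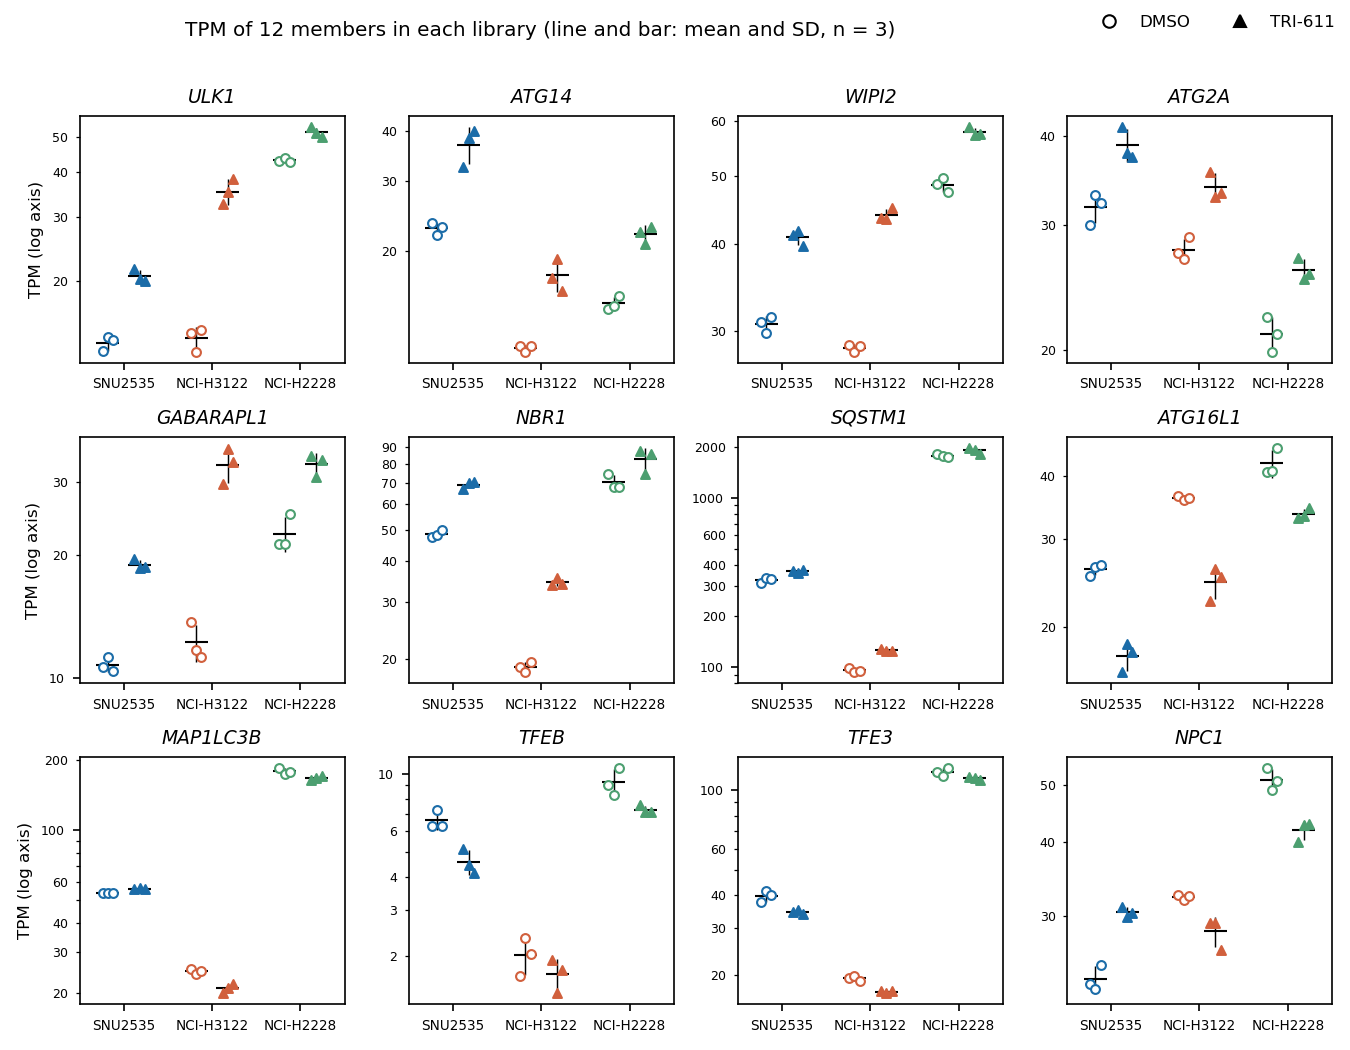
TPM of 12 members in each of the 18 libraries (y axis, log scale that differs between panels; open circles DMSO, filled triangles TRI-611; black line and bar, mean and SD of n = 3). ULK1, ATG14, WIPI2, ATG2A and GABARAPL1 sit higher with TRI-611 in each line, ATG16L1 sits lower in each, and NPC1 is higher in SNU2535 and lower in NCI-H3122 and NCI-H2228.

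Both cargo receptors rose in SNU2535 and NCI-H3122, and neither was called in NCI-H2228. NBR1, a receptor for ubiquitinated cargo and peroxisomes, went from 18.9, 18.2 and 19.6 TPM to 33.8, 35.7 and 34.1 TPM in NCI-H3122 (log2 difference 0.84, SE 0.048, limma adjusted p = 1.6e-05). It read 47.4, 48.3 and 50.1 TPM with DMSO and 67.1, 69.9 and 70.1 TPM with TRI-611 in SNU2535 (log2 difference 0.50, SE 0.039, limma adjusted p = 8.71e-05). In NCI-H2228 it read 74.4, 68.1 and 67.9 TPM with DMSO and 87.6, 74.7 and 85.9 TPM with TRI-611, where the lowest treated library lay just above the highest DMSO library (log2 difference 0.23, SE 0.067, limma adjusted p = 0.0609). The replicate block brought that value to a limma adjusted p of 0.0408. SQSTM1, which encodes p62 (ENSG00000161011, chromosome 5, 179806398 to 179838078, plus strand), read 98.9, 93.4 and 95.1 TPM with DMSO and 128, 124 and 123 TPM with TRI-611 in NCI-H3122 (log2 difference 0.38, SE 0.037, limma adjusted p = 0.000203). It read 315, 334 and 329.6 TPM with DMSO and 368, 361 and 375 TPM with TRI-611 in SNU2535 (log2 difference 0.17, SE 0.033, limma adjusted p = 0.00643). In NCI-H2228, where it was the most abundant member, the groups overlapped at 1824, 1754 and 1746 TPM with DMSO and 1964, 1916 and 1822 TPM with TRI-611 (limma adjusted p = 0.112). SQSTM1 overlaps MGAT4B and MRNIP on the opposite strand.

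The transcription factors were lower with TRI-611 where they were called. TFEB, which drives many lysosomal genes when it enters the nucleus, fell in SNU2535 from 6.31, 7.25 and 6.26 TPM to 5.14, 4.47 and 4.14 TPM (log2 difference -0.45, SE 0.10, limma adjusted p = 0.0128). In NCI-H2228 all treated libraries were lower as well, at 9.05, 8.25 and 10.5 TPM with DMSO and 7.56, 7.10 and 7.14 TPM with TRI-611, without passing the test (limma adjusted p = 0.0722). NCI-H3122 held little TFEB, 1.67, 2.33 and 2.03 TPM with DMSO and 1.91, 1.44 and 1.76 TPM with TRI-611, and its groups overlapped (limma adjusted p = 0.456). TFE3, its relative, read 37.8, 41.5 and 40.0 TPM with DMSO and 34.6, 35.3 and 33.9 TPM with TRI-611 in SNU2535 (log2 difference -0.19, SE 0.047, limma adjusted p = 0.0175) and 19.4, 19.8 and 19.0 TPM with DMSO and 17.3, 17.1 and 17.4 TPM with TRI-611 in NCI-H3122 (log2 difference -0.16, SE 0.046, limma adjusted p = 0.0303). It read 117, 113 and 121 TPM with DMSO and 112, 111 and 109.5 TPM with TRI-611 in NCI-H2228 (limma adjusted p = 0.257), again with every treated library the lower. The SNU2535 call of TFE3 was lost under quantile normalization and when DMSO library 2 or 3 or TRI-611 library 3 was left out (limma adjusted p = 0.0540 to 0.0613). The NCI-H3122 call did not hold without mitochondrially encoded genes, with the replicate block (0.106) or without any 1 of its 6 libraries (0.0548 to 0.0907). These are RNA levels: TFEB and TFE3 activity depends on phosphorylation and nuclear entry, which were not measured.

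Among lysosomal membrane proteins NPC1 moved in opposite directions between lines. Of 4 genes, 2 rose and 0 fell in SNU2535, 1 rose and 1 fell in NCI-H3122, and 0 rose and 1 fell in NCI-H2228. Over all tested genes, 10.7%, 20.6% and 4.8% rose and 18.1%, 13.4% and 6.4% fell. NPC1 exports cholesterol from lysosomes (ENSG00000141458, chromosome 18, 23506184 to 23586898, minus strand). It rose in SNU2535 from 23.0, 22.5 and 24.8 TPM to 31.1, 29.8 and 30.4 TPM (log2 difference 0.36, SE 0.05, limma adjusted p = 0.00139). It fell in NCI-H2228 from 53.4, 49.0 and 50.7 TPM to 40.1, 42.8 and 42.9 TPM (log2 difference -0.28, SE 0.05, limma adjusted p = 0.00929). NCI-H3122 read 32.6, 31.9 and 32.4 TPM with DMSO and 29.2, 29.2 and 26.3 TPM with TRI-611, also lower in every treated library (log2 difference -0.19, SE 0.052, limma adjusted p = 0.0266). The call in NCI-H3122 did not hold with the replicate block (limma adjusted p = 0.0583) or without any 1 DMSO library or TRI-611 replicate 3 (0.0604 to 0.0818). NPC1 shares 604 of 10102 exonic bases with RMC1 on the opposite strand.

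LAMP1 and LAMP2 are the abundant glycoproteins of the lysosomal membrane. LAMP1 was called in no line, at 452, 442 and 438 TPM with DMSO and 475, 442 and 478 TPM with TRI-611 in SNU2535, 158, 156 and 159 TPM with DMSO and 168, 167 and 149 TPM with TRI-611 in NCI-H3122 and 293, 300.4 and 320.4 TPM with DMSO and 329, 338 and 344 TPM with TRI-611 in NCI-H2228. Its groups overlapped in SNU2535 and NCI-H3122 and were apart in NCI-H2228, where the limma adjusted p was 0.0529, and 0.0430 with the replicate block. LAMP2 rose by 0.21 in SNU2535 and 0.16 in NCI-H3122 on the log2 scale (limma adjusted p = 0.00441 and 0.0468). The latter call was lost under median-ratio scaling, with the replicate block (0.0536) or without any 1 DMSO library or TRI-611 replicate 1 or 2 (0.0876 to 0.140). MCOLN1, the lysosomal calcium channel and a known TFEB target whose promoter is shown above, read 17.4, 16.6 and 15.9 TPM with DMSO and 17.0, 14.7 and 16.1 TPM with TRI-611 in SNU2535. It read 18.0, 17.6 and 17.9 TPM with DMSO and 19.2, 18.7 and 17.8 TPM with TRI-611 in NCI-H3122 and 12.7, 9.80 and 11.2 TPM with DMSO and 12.1, 11.9 and 11.6 TPM with TRI-611 in NCI-H2228, with overlapping groups and no call in any line.

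Of the 6 enzymes of the lysosomal lumen, 3 rose in SNU2535, 1 in NCI-H3122 and 0 in NCI-H2228, and 0 fell. Among all tested genes, 10.7%, 20.6% and 4.8% rose and 18.1%, 13.4% and 6.4% fell. The share of lumen enzymes that rose in NCI-H3122 (16.7%) and NCI-H2228 was thus not above that of all genes. The counts were not compared between lines by a test. CTSD encodes cathepsin D, an aspartic protease. In SNU2535 it read 1239, 1353 and 1235 TPM with DMSO and 1575, 1415 and 1398 TPM with TRI-611, without overlap (log2 difference 0.20, SE 0.056, limma adjusted p = 0.0327). NCI-H3122 read 201, 194 and 197 TPM with DMSO and 236, 226 and 199 TPM with TRI-611 and NCI-H2228 906, 847 and 898 TPM with DMSO and 944, 928 and 863 TPM with TRI-611, overlapping and not called (limma adjusted p = 0.0856 and 0.573). The SNU2535 call was lost under quantile normalization, with the replicate block (limma adjusted p = 0.0570) or when DMSO library 1 or 3 or TRI-611 library 1 or 2 was left out (0.0548 to 0.103). CTSB, the cysteine protease cathepsin B, rose by 0.19 in SNU2535 and 0.17 in NCI-H3122 (limma adjusted p = 0.00591 and 0.0211). The NCI-H3122 call of CTSB did not hold with the replicate block (0.0509) or when DMSO library 2 or 3 or TRI-611 library 1 or 2 was left out (0.0547 to 0.0750). HEXA, a subunit of the enzyme that degrades GM2 ganglioside, rose in SNU2535 by 0.27 (limma adjusted p = 0.00291). CTSD shares 1304 of its 3126 exonic bases with AC068580.4 on the same strand, a partner averaging 16.0 TPM where CTSD averaged 825 TPM over all libraries. CTSA, CTSL and GLA were called in no line, with log2 differences between -0.10 and 0.13.

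Of the V-ATPase subunits, 1 was called, in 1 of the 3 lines. In either direction, 28.7%, 34.1% and 11.2% of all tested genes were called. ATP6V1A, the catalytic subunit of the proton pump, was called in NCI-H3122 alone, at 70.7, 66.1 and 69.5 TPM with DMSO and 72.5, 81.4 and 78.2 TPM with TRI-611 (log2 difference 0.17, SE 0.052, limma adjusted p = 0.0402). That call was lost under median-ratio scaling, with the replicate block (limma adjusted p = 0.0815) or without any 1 DMSO library or TRI-611 replicate 2 or 3 (0.0602 to 0.128). SNU2535 read 122, 116 and 129 TPM with DMSO and 126, 137 and 133 TPM with TRI-611 and NCI-H2228 71.6, 67.9 and 69.98 TPM with DMSO and 72.7, 70.02 and 79.1 TPM with TRI-611, with overlap in both. ATP6V0D1 and ATP6V1H, 2 further subunits, were called in no line, with log2 differences between -0.076 and 0.25.

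A fixed list of 106 other autophagy and lysosome genes, none of them a member, gave context. In SNU2535, 34 of 99 tested rose and 6 fell, in NCI-H3122 26 of 96 rose and 6 fell, and in NCI-H2228 4 of 102 rose and 2 fell, beside the shares of all genes given above. Their median log2 differences were 0.10, 0.10 and 0.066. Among 36 further enzymes and cofactors of the lumen, 19 of 35 tested rose in SNU2535, 9 of 34 in NCI-H3122 and 1 of 36 in NCI-H2228, and 0 fell. Among 21 other V-ATPase genes, 2 of 17 rose and 0 fell in SNU2535, 1 of 18 rose and 2 fell in NCI-H3122, and 0 of 18 rose and 1 fell in NCI-H2228. Of all tested genes, 10.7%, 20.6% and 4.8% rose. The V-ATPase share was near that in SNU2535 (11.8%) and under it in NCI-H3122 and NCI-H2228. The share of the further lumen genes was under it in NCI-H2228 (2.78%). The SNU2535 total of 40 was 25 or 26 when DMSO library 1 or 2 or TRI-611 library 1 or 2 was left out, and the NCI-H2228 total of 6 was 3 when TRI-611 replicate 1 or 3 was left out and also with the replicate block. Counts over all genes fell too. In SNU2535, 1731 higher and 2941 lower became 1219 to 1478 and 2310 to 2605 with 1 library left out. In NCI-H2228, 806 and 1076 became 457 and 676 without TRI-611 replicate 1, 434 and 768 without replicate 3 and 782 and 942 with the block.

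The largest rises on that list were in RETREG1 and MITF. RETREG1, a receptor for autophagy of the endoplasmic reticulum, went from 19.1, 20.5 and 20.8 TPM to 54.7, 53.3 and 57.6 TPM in SNU2535 (log2 difference 1.41, SE 0.051, limma adjusted p = 2.29e-06) and from 5.08, 4.50 and 4.16 TPM to 10.3, 9.06 and 10.0 TPM in NCI-H2228 (log2 difference 0.95, SE 0.093, limma adjusted p = 0.000534). It was too low to be tested in NCI-H3122. MITF, a transcription factor related to TFEB and TFE3, measured 3.67, 3.46 and 4.67 TPM with DMSO and 10.0, 11.4 and 9.52 TPM with TRI-611 in NCI-H3122 (log2 difference 1.20, SE 0.11, limma adjusted p = 0.000176) and rose by 0.46 in NCI-H2228 (limma adjusted p = 0.00420). MITF and SLC17A5, a sialic acid exporter, rose in all 3 lines, and WDR45B, a relative of WIPI1 and WIPI2, fell in all 3. RB1CC1, which encodes the ULK1 complex scaffold FIP200, rose by 0.65 in SNU2535 and 0.94 in NCI-H3122 (limma adjusted p = 0.000108 and 5.91e-05). ZKSCAN3, a repressor of autophagy genes, rose by 0.61 and 0.77 from low levels in the same lines, and SLC17A5 by 0.33 in NCI-H2228. The largest falls were in ATG101, another ULK1 complex subunit, at -0.48 in SNU2535 and -0.59 in NCI-H3122 (limma adjusted p = 0.00147 and 4.68e-05). WDR45B measured -0.36 in SNU2535 and -0.25 in NCI-H2228, and the remaining named falls were TMEM192 (-0.26, SNU2535), the V-ATPase subunits ATP6V0A2 (-0.43, NCI-H3122) and ATP6V0B (-0.22, NCI-H2228), and TOLLIP (-0.32, NCI-H3122).

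The next comparison asked whether the response itself differed between lines, as an interaction on the 12 libraries of each pair. ULK1, GABARAPL1 and NBR1 responded more in NCI-H3122 than in either of the other lines, under the main scaling and under both other scalings. The NPC1 difference was higher in SNU2535 than in either of the others under the same scalings. NPC1 rose in SNU2535 (0.36) and was called lower in NCI-H3122 (-0.19) and NCI-H2228 (-0.28), so its direction differed. Between SNU2535 and NCI-H3122, 10 of 35 members differed (20.1% of all tested genes), 2 with the higher value in SNU2535 (3.71%) and 8 with the higher value in NCI-H3122 (16.4%). Between NCI-H3122 and NCI-H2228, 7 of 35 differed (14.3% of all tested genes), with 7 higher in NCI-H3122 (8.99%) and 0 in NCI-H2228 (5.34%). Between SNU2535 and NCI-H2228, 3 of 35 differed (10.6% of all tested genes), with 3 higher in SNU2535 (2.74%) and 0 in NCI-H2228 (7.83%). For SNU2535 against NCI-H3122 the direction of the split depended on the scaling. Median-ratio scaling gave 5 higher in SNU2535 (ATG5, GLA, HEXA, MAP1LC3B and NPC1) and 4 in NCI-H3122 (GABARAPL1, NBR1, ULK1 and WIPI1), and quantile normalization gave 3 and 5. For NCI-H3122 against NCI-H2228 the same 7 members were higher in NCI-H3122 under both scalings, with 2 (ATG16L1 and MAP1LC3B) and 3 (also TFE3) higher in NCI-H2228. The count for SNU2535 against NCI-H2228 was 6 with median-ratio scaling, 8 with quantile normalization and 6 in a fit of all 18 libraries. Of all tested genes, 5.03% were then higher in SNU2535 and 6.07% in NCI-H2228 with median-ratio scaling. Quantile normalization gave 3.92% and 6.01%, and the fit of all 18 libraries 434 and 1322 of 14640 genes. Median-ratio scaling moved the median difference of all genes between SNU2535 and NCI-H3122 from -0.094 to 0.018, and the share of called genes that were higher in SNU2535 from 18.5% to 53.2% (40.6% with quantile normalization). That share moved from 25.9% to 45.4% and 39.5% between SNU2535 and NCI-H2228, and from 62.7% to 48.0% and 51.5% between NCI-H3122 and NCI-H2228.

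ULK1 and GABARAPL1 carried the widest differences. The ULK1 response was higher in NCI-H3122 than in NCI-H2228 by 1.03 on the log2 scale (SE 0.088, limma adjusted p = 5.74e-06) and than in SNU2535 by 0.71 (SNU2535 minus NCI-H3122 -0.71, SE 0.10, limma adjusted p = 0.000331). It was also higher in SNU2535 than in NCI-H2228 (0.32, SE 0.067, limma adjusted p = 0.00862). GABARAPL1 was higher in NCI-H3122 by 0.82 against NCI-H2228 (limma adjusted p = 0.000812) and differed by -0.61 between SNU2535 and NCI-H3122 (0.00219). For GABARAPL1 the remaining pair did not pass the test, with a 95% confidence interval of 0.0036 to 0.42. NBR1 differed by 0.60 between NCI-H3122 and NCI-H2228 (limma adjusted p = 0.000384).

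NPC1 differed in the other direction, by 0.55 against NCI-H3122 and 0.64 against NCI-H2228 with SNU2535 the higher (limma adjusted p = 0.000216 and 7.92e-05). NCI-H3122 and NCI-H2228 did not pass the test for NPC1 (95% confidence interval -0.066 to 0.24). The response of MAP1LC3B differed by 0.29 and that of WIPI1 by -0.53 between SNU2535 and NCI-H3122 (limma adjusted p = 0.00284 and 0.00784). ATG13 differed by 0.21 between SNU2535 and NCI-H2228 (limma adjusted p = 0.0485), which did not hold with the replicate block (0.0643) or without any 1 of the 12 libraries except SNU2535 DMSO replicate 3 and NCI-H2228 TRI-611 replicate 3 (0.0501 to 0.117). Between SNU2535 and NCI-H3122, ATG13, ATG9A, WIPI2 and SQSTM1 lost their calls under median-ratio scaling, where limma adjusted p rose to at most 0.263, and the first 3 also under quantile normalization. ATG9A also lost its call there without SNU2535 DMSO replicate 2 or 3, SNU2535 TRI-611 replicate 1, NCI-H3122 DMSO replicate 2 or 3 or NCI-H3122 TRI-611 replicate 3 (0.05003 to 0.0652).

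Some members did not pass the test of a different response in any pair. The intervals given are not adjusted for the number of genes, so that some lie to one side of 0. For ATG2A the 95% confidence intervals of the differences were -0.17 to 0.16, -0.18 to 0.17 and -0.17 to 0.16 for SNU2535 against NCI-H3122, then against NCI-H2228, and for NCI-H3122 against NCI-H2228. For ATG14 they were -0.13 to 0.34, -0.094 to 0.33 and -0.19 to 0.22, and for ATG16L1 -0.19 to 0.17, -0.40 to -0.049 and -0.39 to -0.039. As a description, responses of the 35 members tested in each pair correlated across genes at r = 0.775 for SNU2535 with NCI-H3122, 0.753 for SNU2535 with NCI-H2228 and 0.804 for the remaining pair, where all tested genes gave 0.550, 0.477 and 0.476. The responses of 2 lines share no library, and genes are not independent replicates.

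The last comparison asked how the members differ between the lines without the compound. NCI-H2228 had the highest DMSO mean for 22 of 36 members, SNU2535 for 11 and NCI-H3122 for 3, and NCI-H3122 had the lowest for 25. This order was not counted over all genes. Their median log2 difference also placed NCI-H3122 lowest, at 0.16 for SNU2535 minus NCI-H3122 and -0.25 for NCI-H3122 minus NCI-H2228. After median-ratio scaling these medians were 0.013 and -0.016, and the part of library scale in the order was not tested. In sum the members took 3681 ± 80.0 TPM in SNU2535, 1372 ± 21.7 TPM in NCI-H3122 and 5867 ± 96.7 TPM in NCI-H2228 with DMSO (SD, n = 3 each). With TRI-611 the sums were 4129.9 ± 129.5, 1573 ± 56.3 and 6113 ± 87.8 TPM. A few abundant genes weighed heavily in these sums. With DMSO, SQSTM1, CTSL and CTSD averaged 1774, 1002 and 884 TPM in NCI-H2228, and CTSD averaged 1275 TPM in SNU2535. In one limma fit of the 9 DMSO libraries, 32 of 36 members differed for SNU2535 against NCI-H3122, 35 for SNU2535 against NCI-H2228 and 34 for the remaining pair, shares to be read beside 76.1%, 75% and 79.3% of all tested genes. By direction, 26 were higher in SNU2535 and 6 in NCI-H3122 (45.4% and 30.7% of all tested genes). For SNU2535 and NCI-H2228 the counts were 11 and 24 (32.4% and 42.6%), and for NCI-H3122 and NCI-H2228 5 and 29 (30% and 49.3%).

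The scale of these comparisons depends on the scaling of whole libraries. The median log2 difference of all genes was 0.16, -0.11 and -0.25 for SNU2535 against NCI-H3122, then against NCI-H2228, and for NCI-H3122 against NCI-H2228. It was 0.013, -0.026 and -0.016 after median-ratio scaling and -0.078, -0.013 and 0.095 after quantile normalization. Member medians were 0.69, -0.46 and -0.93. The share of called genes that were higher in the first line moved from 59.6% to 46.3% with quantile normalization for SNU2535 against NCI-H3122, and from 37.9% to 48.8% and 53.8% with the 2 scalings for NCI-H3122 against NCI-H2228. Some differences turned sign under these scalings, those of ULK2, ATG2A and WIPI2 for SNU2535 against NCI-H3122. For NCI-H3122 against NCI-H2228, those of ATG14, ATG12, ATG16L1 and ATP6V1A turned, and ATG13 lost its call under both scalings. Of the turned differences, ATG12 passed the test with NCI-H3122 higher under quantile normalization (limma adjusted p = 0.0181). ATP6V1A did so under both scalings (0.000236 and 0.000775), and the others did not pass.

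On the log2(TPM + 1) scale CTSL and SQSTM1 had the largest differences between lines. With a pseudocount of 0.1, MAP1LC3A came second to CTSL, at -5.99 against -6.26 for NCI-H3122 against NCI-H2228, but it was at or near 0 in NCI-H3122. CTSL, the cysteine protease cathepsin L, averaged 103 ± 4.40 TPM in SNU2535, 13.0 ± 0.777 TPM in NCI-H3122 and 1002 ± 50.3 TPM in NCI-H2228 (SD, n = 3 each). The log2 difference between NCI-H3122 and NCI-H2228 was -6.16, SE 0.053, limma adjusted p = 5.11e-13. SQSTM1 averaged 326 ± 9.86, 95.8 ± 2.78 and 1774 ± 42.8 TPM in the same order (log2 difference between NCI-H3122 and NCI-H2228 -4.20, SE 0.033, limma adjusted p = 3.38e-13). CTSD was highest in SNU2535, at 1275 ± 66.9 TPM, against 197 ± 3.32 TPM in NCI-H3122 and 884 ± 31.8 TPM in NCI-H2228. MAP1LC3B averaged 53.7 ± 0.0573, 24.7 ± 0.655 and 179 ± 5.39 TPM. MAP1LC3A read 0, 0.1002 and 0.0763 TPM in SNU2535, 0.0630, 0 and 0 TPM in NCI-H3122 and 7.83, 6.59 and 7.72 TPM in NCI-H2228. NCI-H2228 was thus the line with both LC3 genes of the member list at their highest.

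Other wide differences lay in several roles. WIPI1 was higher in NCI-H2228 than in SNU2535 (SNU2535 minus NCI-H2228 -1.98), and ATP6V0D1 higher in SNU2535 than in NCI-H3122 (1.82). NCI-H3122 exceeded SNU2535 in ATG5 (SNU2535 minus NCI-H3122 -1.21), ATG7 (-0.54), ATG9A (-0.53) and ATG16L1 (-0.46). SNU2535 exceeded NCI-H2228 in GABARAP (0.80), ATP6V1A (0.80), ATP6V1H (0.59) and ATG14 (0.59). NCI-H3122 exceeded NCI-H2228 in MCOLN1 (0.63), GABARAP (0.47), ATG2A (0.38) and ATG5 (0.35). Each of these passed the test, with limma adjusted p of at most 0.000145.

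Neighbours in the order of levels that did not differ by the test were few. SNU2535 and NCI-H3122 did not pass for ULK1, GABARAPL1, MCOLN1 and MAP1LC3A, and NCI-H3122 and NCI-H2228 did not for ATP6V1A. ULK2 in NCI-H2228 passed against neither of the others (limma adjusted p = 0.547 and 0.0528, and 0.0460 against NCI-H3122 with the replicate block). These results depended on the processing. ATP6V1A was called higher in NCI-H3122 than in NCI-H2228 by 0.27 under median-ratio scaling (limma adjusted p = 0.000236). Under quantile normalization it was called higher by 0.23 (0.000775). Of the members not called for SNU2535 against NCI-H3122, 3 gained a call under some alternative. ATG13 passed narrowly between SNU2535 and NCI-H2228 (limma adjusted p = 0.0466), a call that did not hold with the replicate block (0.0772) or without any 1 DMSO library of the fit except SNU2535 replicate 1 and NCI-H2228 replicate 1 (0.0611 to 0.159). Calls between SNU2535 and NCI-H3122 were also lost for ULK2 without SNU2535 replicate 3 (0.0708) and for WIPI2 without SNU2535 replicate 1 or 3 or NCI-H3122 replicate 2 (0.0571 to 0.0738). The call of ATG12 between NCI-H3122 and NCI-H2228 was lost without NCI-H3122 replicate 2 or NCI-H2228 replicate 1 (0.0542 to 0.0545). ULK1 and GABARAPL1, whose responses differed most, had their highest DMSO means in NCI-H2228, at 43.2 ± 0.600 and 22.5 ± 2.23 TPM (SD, n = 3).

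**Figure D4:**
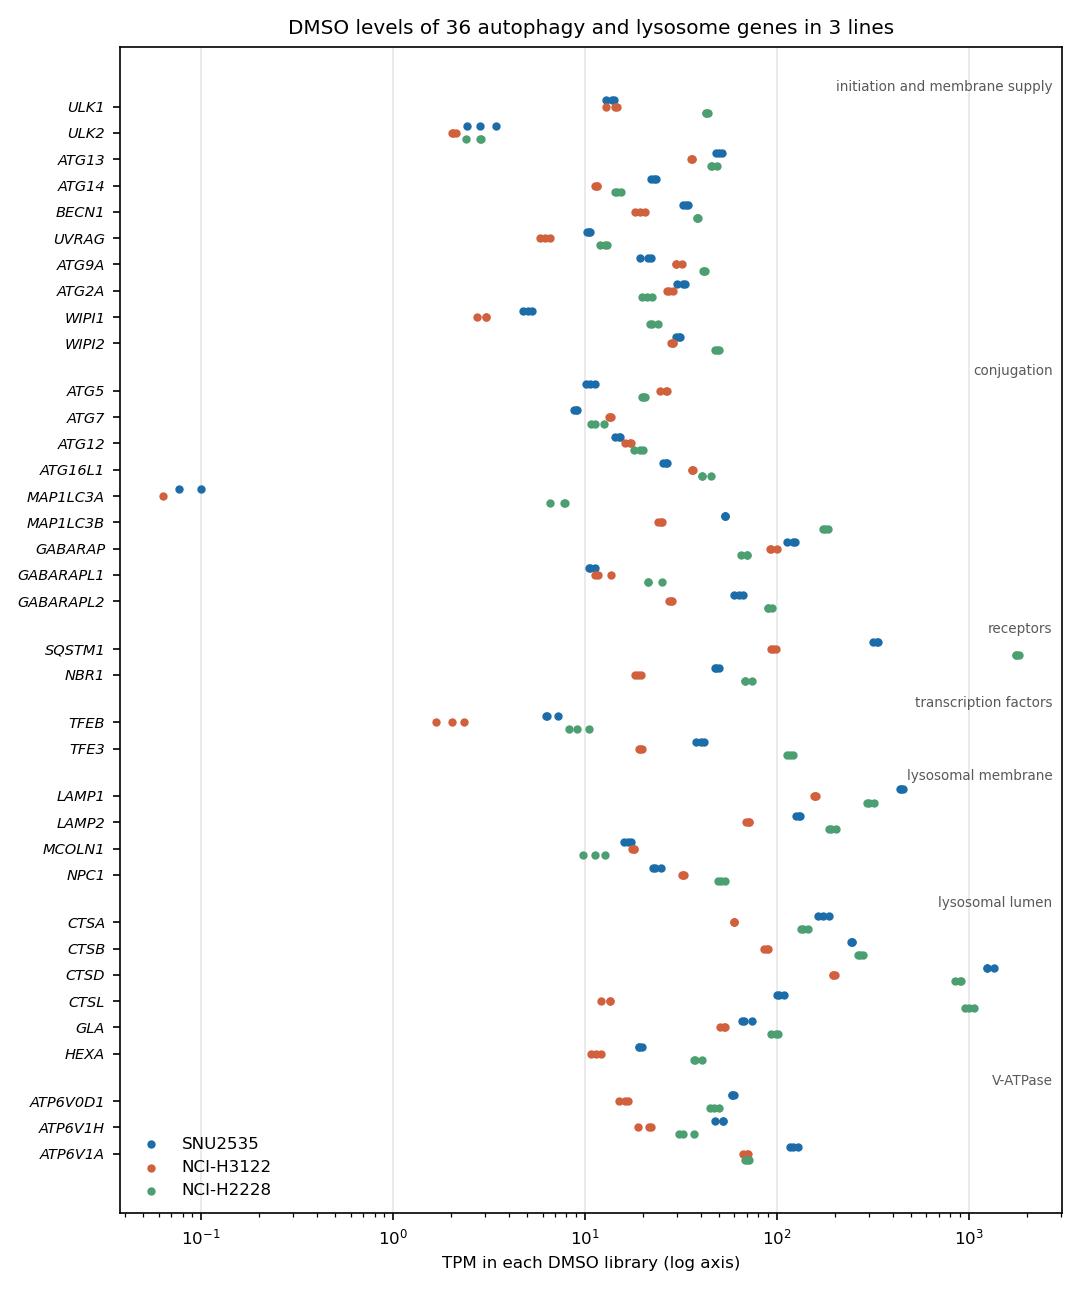
TPM of each member in each DMSO library of the 3 lines (x axis, log scale; 3 points per line; values listed at 0 are not drawn). CTSL spreads from a mean of 13.0 TPM in NCI-H3122 to 1002 TPM in NCI-H2228. NCI-H3122 (orange) has the lowest mean for 25 of 36 members, though its points can overlap those of another line, as for ATP6V1A.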

How the data were processed

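Poly-A RNA was sequenced from 18 libraries of 3 cell lines. The authors deposited 1 table of TPM values per gene. Per the submitters' processing notes, the tools were STAR 2.5.2b, fastp 0.23.1, DESeq2, featureCounts and Subread 1.5.2, on GRCh38. Not given in the sources used here were the annotation, the strand setting, the handling of molecular identifiers and the derivation of TPM. Gene coordinates came from GENCODE release 29.

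Tests used limma 3.58.1 in R 4.3.3 on log2(TPM + 1), with a trended, robust empirical Bayes fit, two-sided, and Benjamini-Hochberg adjustment over all tested genes. Fold changes on this scale understate changes of low genes. Genes needed at least 1 TPM in 3 libraries of the fit, in both lines for response differences. Figures and tables used Python 3.11.15, pandas 2.3.3 and matplotlib 3.10.9. The fits were run on simulated data with independent noise for each gene and no batch or scale shift between libraries. That run cannot show how calls fare under such shifts.

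The labels' batch number is the replicate number and so pairs the samples. Deviations of same-numbered samples correlated at -0.023, 0.044 and 0.0097 for the SNU2535 pairs. The NCI-H3122 pairs gave -0.086, -0.029 and 0.015. Those of NCI-H2228 gave 0.10, 0.0034 and 0.083. The labels do not say that replicates were separate cultures, so p-values reflect only how far these samples spread, and that spread may be technical. Alternatives were pseudocounts of 0.1 and 5, no filter, a mean of at least 5 TPM, median-ratio scaling, quantile normalization, removal of mitochondrially encoded genes, the replicate block, plain empirical Bayes, a fit of all 18 libraries and leaving out each library.

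Members and lists were chosen with earlier results of these data known. Values in every library are given for 15 members set by role and for the 5 largest called rises and falls per line. For other pathway genes the 3 largest called rises and falls per line are named, and for line differences the 3 or 4 largest in each direction.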

Additional observations from a re-analysis of the deposited data

Results flagged for a closer look

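Responses of 10 members differed between lines in the interaction test, which makes 20 differences between pairs of lines. ULK1 and ATG13 passed in all 3 pairs. Values are log2 differences of the response, the first line minus the second, with limma adjusted p over all tested genes.

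For SNU2535 minus NCI-H3122, the differences were -0.71 for ULK1 (limma adjusted p = 0.000331), -0.61 for GABARAPL1 (0.00219), -0.53 for WIPI1 (0.00784), -0.34 for NBR1 (0.00158) and -0.24 for ATG9A (0.0263). They were -0.22 for ATG13 (0.0158), -0.21 for WIPI2 (0.0152), -0.21 for SQSTM1 (0.00962), 0.55 for NPC1 (0.000216) and 0.29 for MAP1LC3B (0.00284).

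For SNU2535 minus NCI-H2228, NPC1 differed by 0.64 (limma adjusted p = 7.92e-05), ULK1 by 0.32 (0.00862) and ATG13 by 0.21 (0.0485). For NCI-H3122 minus NCI-H2228, ULK1 differed by 1.03 (limma adjusted p = 5.74e-06), GABARAPL1 by 0.82 (0.000812), NBR1 by 0.60 (0.000384), ATG13 by 0.44 (0.000430), WIPI2 by 0.37 (0.000348), ATG9A by 0.32 (0.00152) and SQSTM1 by 0.28 (0.00215).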

How the results depend on the processing

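Of the calls in SNU2535, NCI-H3122 and NCI-H2228, 14 of 19, 11 of 18 and 6 of 7 held in every alternative that tested them. The same was true of 6 of 10, 2 of 3 and 7 of 7 response differences, and of 29 of 32, 34 of 35 and 30 of 34 DMSO differences, each for SNU2535 against NCI-H3122, SNU2535 against NCI-H2228 and NCI-H3122 against NCI-H2228. Other members, not called in the main fit, gained a call under some alternative: 6, 6 and 7 in the 3 lines. For the response differences these numbered 4, 7 and 3, and for the DMSO differences 3, 0 and 2, in the same orders. No called response reversed. With no filter, calls were lost for ATG9A, ATG5, GABARAP and CTSD in SNU2535, for BECN1, WIPI1, TFE3, LAMP2, NPC1, CTSB and ATP6V1A in NCI-H3122 and for ATG2A in NCI-H2228. Where a count moved by over 1.5 times, the cause was not tested. Members higher in NCI-H3122 numbered 9 with no filter, 9 with the replicate block and 9 to 14 leaving out 1 library, against 14. Over all genes there, 3160 of 15311 were higher in the main fit and 2420 of 31274 with no filter. The replicate block gave 2513 and leaving out 1 library 2240 to 3025. Members lower in NCI-H3122 numbered 2 with no filter, 2 with the replicate block and 2 to 3 leaving out 1 library, against 4. All genes lower there numbered 1637 of 31274 with no filter, against 2054 of 15311. They numbered 1781 with the replicate block and 1588 to 1923 leaving out 1 library. Members higher in NCI-H2228 numbered 9 with quantile normalization and 8 without mitochondrially encoded genes, against 5. All genes higher there numbered 1035 of 16806 with quantile normalization and 1162 of 17143 without mitochondrially encoded genes, against 806 of 16806. Other pathway genes in SNU2535 numbered 22 with no filter, 25 with plain empirical Bayes and 25 to 30 leaving out 1 library, against 40. Over all genes there, 1245 were higher and 2302 lower of 32185 with no filter. Plain empirical Bayes gave 1428 and 2636 of 16252, and leaving out 1 library 1219 to 1478 and 2310 to 2605. The main fit gave 1731 and 2941. Other pathway genes in NCI-H2228 numbered 3 with no filter, 3 with the replicate block, 3 with plain empirical Bayes, 11 with a stricter filter, 11 with quantile normalization, 11 without mitochondrially encoded genes, 15 in a fit of all 18 libraries and 3 to 6 leaving out 1 library, against 6. All genes higher and lower there numbered 422 and 630 of 32396 with no filter, against 806 and 1076 of 16806. The replicate block gave 782 and 942, plain empirical Bayes 556 and 621 and the stricter filter 956 and 1293 of 11606. Quantile normalization gave 1035 and 1059, removing mitochondrially encoded genes 1162 and 908 of 17143, and the 18-library fit 1219 and 1373. Leaving out 1 library gave 434 to 921 and 676 to 825. Response differences between SNU2535 and NCI-H2228 numbered 6 with median-ratio scaling, 8 with quantile normalization and 6 in a fit of all 18 libraries, against 3. Over all 14640 tested genes, 401 were higher and 1146 lower in SNU2535 in the main fit. Median-ratio scaling gave 737 and 888, quantile normalization 574 and 880 and the fit of all 18 libraries 434 and 1322. The pairing by batch changed no member call beyond those named in the report.

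DMSO differences reversed in 11 cases. For SNU2535 against NCI-H3122, quantile normalization gave -0.022 for ULK2, -0.019 for ATG2A and -0.099 for WIPI2, and median-ratio scaling -0.083 for WIPI2. For NCI-H3122 against NCI-H2228, quantile normalization gave 0.043 for ATG14, 0.17 for ATG12, 0.084 for ATG16L1 and 0.23 for ATP6V1A. Median-ratio scaling gave 0.11 for ATG12, 0.071 for ATG16L1 and 0.27 for ATP6V1A. In the new direction, ATG12 passed the test with quantile normalization (limma adjusted p = 0.0181). ATP6V1A passed with both (0.000775 with quantile normalization and 0.000236 with median-ratio scaling). Uncalled responses changed sign under some alternative for 4, 6 and 6 members in SNU2535, NCI-H3122 and NCI-H2228. The table holds no read totals, so precision at low levels such as those of ULK2 and TFEB cannot be set from depth.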
